A study of Mus musculus with 9 samples.

Results

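The receptors that bind TGF-beta and bone morphogenetic proteins (BMPs), their intracellular inhibitors and the Id genes used to read out BMP signalling were examined as 10 genes in primary mouse lung endothelial cells (MLEC) with and without JNK1 and JNK2. The 10 genes were chosen by name: the type I receptors *Acvrl1* and *Tgfbr1*, the type II receptors *Bmpr2* and *Tgfbr2*, the co-receptor *Eng*, the inhibitory SMADs *Smad6* and *Smad7*, and the readouts *Id1*, *Id2* and *Id3*. All 10 were found among the 37104 loci with RNA-seq values. RNA was sequenced from 9 libraries in 3 groups of 3. All mice were C57BL/6J adults of 10 to 12 weeks and all carried Jnk3-/-, including the controls. E3KO cells were Cdh5-Cre+ Jnk1LoxP/LoxP Jnk2LoxP/LoxP, so that Cre under the promoter of the endothelial cadherin gene *Cdh5* recombined *Mapk8* (JNK1) and *Mapk9* (JNK2). ECtrl cells were Cdh5-Cre+ Jnk1+/+ Jnk2+/+, and EfCtrl cells were Cdh5-Cre- Jnk1LoxP/LoxP Jnk2LoxP/LoxP. Each library came from a separate isolation from the pooled lungs of several mice, by selection for the adhesion molecule ICAM2 and growth in culture, so each value describes a cultured pool and not a single mouse. In such bulk RNA, fewer cells of a type and less RNA per cell cannot be told apart.

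Ligands of the TGF-beta superfamily assemble a pair of type II and a pair of type I receptor kinases. The type II kinase phosphorylates the type I kinase, which phosphorylates receptor-regulated SMAD proteins that enter the nucleus with SMAD4. Endothelial cells are known for carrying both a TGF-beta branch, through TGFBR2 and TGFBR1 (ALK5), and a BMP branch, through BMPR2 and ACVRL1 (ALK1), with endoglin as a co-receptor. Mutations in ACVRL1 and ENG cause hereditary haemorrhagic telangiectasia and mutations in BMPR2 cause pulmonary arterial hypertension. Id genes are direct SMAD targets that encode inhibitors of basic helix-loop-helix transcription factors, and SMAD6 and SMAD7 are induced by the pathway and restrain it.

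None of the 9 genes that could be tested passed the test between E3KO and control MLEC. Values are in FPKM (fragments per kilobase of exon and per mapped fragments of the library, scaled to a fixed total). Mean *Tgfbr2* in E3KO cells was 0.851 times that of the controls. All 3 E3KO libraries lay below all 6 controls, as they did for 11.5% of all genes tested. Once libraries were centred on their medians, 1 of the 3 remained below. *Id3* was lower by 0.59 on the log2 scale, but both *Tgfbr2* and *Id3* had limma adjusted p-values above 0.1. *Smad7* had E3KO libraries both below and above all controls. Of 46 other pathway genes tested, 5 were lower against the mean of the controls at an adjusted p under 0.05 (limma). They were 3 ligand genes (*Tgfb2*, *Tgfb3*, *Bmp2*), the latency protein gene *Ltbp1* and the BMP-binding protein gene *Twsg1*. *Bambi* and *Ctgf* were higher, and *Bambi* reached the 2 FPKM needed for testing in E3KO only. Over all genes, 4.8% passed in that comparison. Only *Ltbp1* also passed against EfCtrl, and *Tgfb3*, *Twsg1* and *Ctgf* passed against neither control group alone. All of these calls were lost without E3KO replicate 3.

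The 250 bases before the RefSeq start (GRCm38.p6, the mm10 build) are shown for *Tgfbr2* and *Tgfbr1*, whose products form the TGF-beta receptor complex, for the co-receptor gene *Eng*, and for *Ltbp1*, the pathway gene with the lowest adjusted p. They are *Tgfbr2* at chr9:116175364-116175613 (minus strand), *Tgfbr1* at chr4:47352972-47353221 (plus strand), *Eng* at chr2:32646345-32646594 (plus strand) and *Ltbp1* at chr17:75005279-75005528 (plus strand), each written 5′ to 3′ towards the start. Capitals mark the BMP-response letters GGCGCC and the SMAD-binding letters CAGAC or GTCTG.
Tgfbr2: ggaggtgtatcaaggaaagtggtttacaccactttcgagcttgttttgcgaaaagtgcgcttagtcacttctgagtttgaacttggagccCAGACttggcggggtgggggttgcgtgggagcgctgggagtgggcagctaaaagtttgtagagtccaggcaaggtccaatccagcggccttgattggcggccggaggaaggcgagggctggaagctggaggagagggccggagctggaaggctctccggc
Tgfbr1: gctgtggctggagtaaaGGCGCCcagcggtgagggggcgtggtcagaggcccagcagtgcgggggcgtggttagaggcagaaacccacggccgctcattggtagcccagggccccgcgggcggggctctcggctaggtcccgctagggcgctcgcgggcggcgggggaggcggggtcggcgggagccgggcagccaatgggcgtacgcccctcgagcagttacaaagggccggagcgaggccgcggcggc
Eng: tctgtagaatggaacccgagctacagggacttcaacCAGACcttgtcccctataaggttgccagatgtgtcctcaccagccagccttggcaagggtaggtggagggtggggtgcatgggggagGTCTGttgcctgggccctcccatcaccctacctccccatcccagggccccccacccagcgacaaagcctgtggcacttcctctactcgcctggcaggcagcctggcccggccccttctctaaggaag
Ltbp1: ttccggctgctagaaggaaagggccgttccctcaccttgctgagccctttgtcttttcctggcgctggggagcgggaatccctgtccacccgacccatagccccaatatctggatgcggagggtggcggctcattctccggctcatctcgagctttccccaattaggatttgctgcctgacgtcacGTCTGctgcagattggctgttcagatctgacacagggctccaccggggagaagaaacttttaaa

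These windows differed in base composition and in the letters they held. GC content was 58.4% for *Tgfbr2*, 74.8% for *Tgfbr1*, 62.4% for *Eng* and 56.8% for *Ltbp1*, against a median of 52.4% over 32851 promoter windows of the same length. Both strands were searched for GGCGCC, for CAGAC, and for the AP-1 letters TGANTCA, since AP-1 contains the JNK substrate c-Jun. GGCGCC occurred in 9.59% of all windows, CAGAC or GTCTG in 42.2% and TGANTCA in 6.75%. In the windows shown, *Tgfbr1* had GGCGCC beginning 233 bases before its start, and *Eng* had CAGAC at 214 and GTCTG at 127. *Tgfbr2* had CAGAC at 160 and *Ltbp1* had GTCTG at 64. *Tgfbr1* and *Ltbp1* each have another listed start, whose window is not shown. It held CAGAC at 203 for *Tgfbr1*, and GTCTG at 148 and 97 for *Ltbp1*. Entries were found for 7 of the 10 genes. Of the others, *Bmpr2* and *Id2* held GGCGCC, *Id3* held CAGAC or GTCTG at 2 positions, and *Smad6* held none of the 3 motifs. The windows of *Bmpr2*, *Id2* and *Id3* overlap their own gene in the annotation, as do those of the other starts of *Tgfbr1* and *Ltbp1*. The first windows of all 7 genes were without TGANTCA, and no other AP-1 letters were searched. A match of so few letters describes the window only.

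The labels were checked against the targeted genes. *Mapk9* was at 42.7 to 50.9 FPKM in the 6 controls and at 27.6, 35.1 and 20.7 in E3KO replicates 1 to 3. *Mapk8* was at 14.0 to 17.9 FPKM in the controls and at 8.77 and 4.65 in E3KO replicates 2 and 3, but at 20.7 in the library labelled E3KO replicate 1. Whole-gene FPKM can include reads from exons that recombination leaves in place. The *Mapk8* value of the library labelled E3KO replicate 1 lay above all 6 controls, and its cause was not tested. The same library had an FPKM sum of 9841812, of which 96.4% lay in its 10 highest symbols, against sums of 656089 to 908401 in the other 8 libraries. Without symbols averaging 5000 FPKM or more, all 9 sums lay between 388537 and 433172. Differences of the 10 genes that this library turned or moved by over 1.5 times are given with and without it. Of the pan-endothelial markers, *Pecam1* was at 643 to 798 FPKM and *Cdh5* at 613 to 943 over the 9 libraries, while *Vwf* was at 0.356 to 2.15. Summed lymphatic endothelial markers (5 genes) were 2129 to 2787 FPKM in ECtrl, 2123 to 2340 in EfCtrl and 1976 to 2286 in E3KO. Of the 9 tested pan-endothelial markers 1 was called against the mean of the controls, where 4.8% of all genes were. It was *Emcn*, with control libraries at 822 to 1095 FPKM and E3KO libraries at 1452 to 1557 (limma adjusted p = 0.0260). *Emcn* was called against neither ECtrl (limma adjusted p = 0.0572) nor EfCtrl (limma adjusted p = 0.0692) alone. Of the 5 lymphatic markers all were lower and 2 were called, where 3.26% of all genes were called lower. They were *Prox1* (134 and 67.3 FPKM, limma adjusted p = 0.0131) and *Ccl21a* (4.99 and 0.773, limma adjusted p = 0.0381). *Lyve1* had a log2 difference of -0.07, beside a median of -0.08 over all genes tested. In 15 alternative fits, the call held in 14 for *Prox1*, 9 for *Emcn* and 7 for *Ccl21a*. Summed leukocyte markers (9 genes, with *Cd3e* at 0) were 71.4 to 148 FPKM in ECtrl, 153 to 246 in EfCtrl and 189 to 306 in E3KO. Summed smooth muscle and fibroblast markers (9 genes, 5 of them under 1 FPKM in all libraries) were 8.80 to 30.9 in ECtrl, 18.7 to 54.4 in EfCtrl and 9.17 to 18.4 in E3KO. Summed epithelial markers (7 genes) were 2.55 to 6.05 in ECtrl, 3.49 to 4.20 in EfCtrl and 2.81 to 51.3 in E3KO, with *Scgb1a1* at 46.2 FPKM in the library labelled E3KO replicate 1. The part of these levels in any result was not tested.

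Transcript levels of the 10 genes spanned more than 2 orders of magnitude in control MLEC. On the FPKM scale, which is per length, the mean over the 6 controls was 361 for *Tgfbr2*, 127 for the locus that holds *Eng*, 25.3 for *Acvrl1*, 23.7 for *Id3*, 23.4 for *Bmpr2*, 10.5 for *Id1*, 8.48 for *Id2*, 8.05 for *Tgfbr1*, 1.86 for *Smad7* and 1.14 for *Smad6*. *Tgfbr2* lay above 98.7% of the 10605 genes tested. It exceeded the *Eng* locus, the *Eng* locus exceeded *Acvrl1*, *Tgfbr1* exceeded *Smad7* and *Smad7* exceeded *Smad6* in 6 of 6 control libraries. The middle of the order was not separated: *Acvrl1* was above *Id3* in 3 of 6 controls, *Id3* above *Bmpr2* in 2 of 6, *Id1* above *Id2* in 4 of 6 and *Id2* above *Tgfbr1* in 2 of 6. *Bmpr2* was above *Id1* in 5 of 6. Of the other type I receptor genes of the BMP branch, *Acvr1* (ALK2) had a control mean of 18.9 FPKM, *Bmpr1a* of 0.522 and *Bmpr1b* of 0.128. The genes of the circulating ACVRL1 ligands, *Gdf2* and *Bmp10*, were listed at 0 in all 9 libraries.

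**Figure D1:**
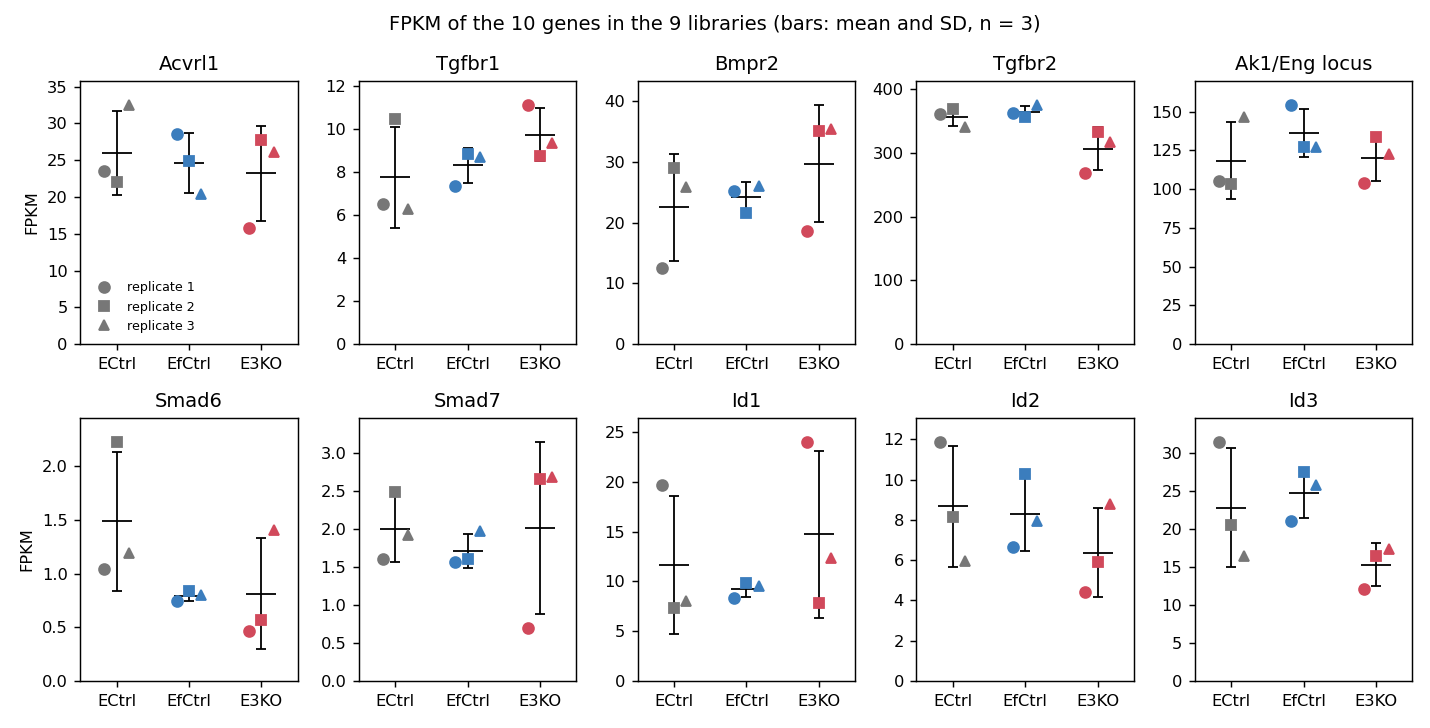
FPKM of the 10 genes (vertical axes, linear and starting at 0, a separate scale for each gene) in the libraries of ECtrl, EfCtrl and E3KO, with the symbol shape giving the replicate number and black bars the mean and SD of 3 libraries. The 3 E3KO libraries of Tgfbr2 (269 to 333) lie below all controls (340 to 375), while for Smad7 and Bmpr2 the library labelled E3KO replicate 1 lies apart from E3KO replicates 2 and 3.

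E3KO cells were compared with the mean of the controls, with ECtrl, which shares Cre, and with EfCtrl, which shares the LoxP alleles, to ask whether loss of JNK1 and JNK2 went with a change in these transcripts. The fit was made with limma on log2(FPKM + 1) of all 9 libraries for the 10605 genes that averaged at least 2 FPKM in some group. A gene was called where its adjusted p was under 0.05. *Smad6* was below the expression limit, which left 9 of the 10 genes. Of these 9, 0 were called in any comparison by limma, and 2 (*Tgfbr2* and *Id3*) had an unadjusted p under 0.05 against the mean of the controls. Over all genes, limma called 4.8% against the mean of the controls (163 higher and 346 lower, or 209 and 268 once libraries were centred on their medians), 2.25% against ECtrl and 0.952% against EfCtrl, and 23.8% had an unadjusted p under 0.05 in the first of these. Between the controls themselves 0% of genes were called by limma, with 195 genes at an unadjusted p under 0.05. The median log2 difference of the 9 genes from the mean of the controls was -0.08, with 4 higher and 5 lower, and the median of all genes tested was also -0.08. In simulated data with this design, limma called 69% of genes changed by 1 on the log2 scale against the mean of the controls. It called 61% of them against ECtrl and 57% against EfCtrl, and 100% of those changed by 2. Smaller changes, and changes in genes of low level such as *Smad7*, were not simulated. The lack of a call therefore does not show that a gene was unchanged. With 3 libraries against 6, the smallest p of an exact two-sided permutation test was 0.0119, and this test, on log2(FPKM + 0.1) of each single gene, carried no adjustment for the 10 genes. The 3 comparisons with E3KO share libraries and are not independent of each other.

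*Tgfbr2* encodes the type II receptor that binds TGF-beta ligands and lies at mm10 chromosome 9, 116087698 to 116175363. It was at 361, 369 and 340 FPKM in ECtrl, 362, 356 and 375 in EfCtrl, and 269, 333 and 318 in E3KO. The controls were close to each other, with a coefficient of variation of 3.34% over 6 libraries, and every E3KO library lay below every control, as it did for 11.5% of all genes tested. The log2 difference from the mean of the controls was -0.24 (SE 0.096, 95% interval -0.46 to -0.02), with an adjusted p of 0.183 by limma and p = 0.0119 by the exact permutation test, the smallest it can give. Against ECtrl alone the log2 difference was -0.22 (limma adjusted p = 0.303) and against EfCtrl alone -0.25 (limma adjusted p = 0.281). Once each library was centred on the median of its tested genes, 1 of the 3 E3KO libraries remained below all controls and the log2 difference was -0.17. Without the library labelled E3KO replicate 1, it was -0.15 before centring.

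*Tgfbr1* encodes the type I receptor ALK5, the partner of TGFBR2, at chromosome 4, 47353222 to 47414931. It was at 6.53, 10.5 and 6.30 FPKM in ECtrl, 7.38, 8.87 and 8.70 in EfCtrl, and 11.1, 8.77 and 9.36 in E3KO. The E3KO values overlapped those of both control groups. The log2 difference from the mean of the controls was 0.26 (SE 0.16, 95% interval -0.11 to 0.64, limma adjusted p = 0.356), and 0.17 without the library labelled E3KO replicate 1.

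*Acvrl1* encodes ALK1, the type I receptor of the endothelial BMP branch, at chromosome 15, 101128522 to 101145336. It was at 23.5, 22.0 and 32.5 FPKM in ECtrl, 28.6, 24.9 and 20.4 in EfCtrl, and 15.7, 27.7 and 26.2 in E3KO. Its E3KO replicates 2 and 3 lay within the range of the controls and the library labelled E3KO replicate 1 lay below it. The log2 difference was -0.14 (SE 0.21, 95% interval -0.62 to 0.34, limma adjusted p = 0.702), and 0.10 without that library. The annotation places the gene *Gm16031* over part of the locus on the opposite strand.

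*Bmpr2* encodes the BMP type II receptor, at chromosome 1, 59764279 to 59870549, where the annotation also places *Gm38125*. It was at 12.5, 29.1 and 25.9 FPKM in ECtrl, 25.2, 21.5 and 26.0 in EfCtrl, and 18.6, 35.2 and 35.4 in E3KO. E3KO replicates 2 and 3 were above all 6 controls and averaged 1.51 times the control mean, whereas the library labelled E3KO replicate 1 was below 5 of 6 controls. The fitted difference was 0.32 (SE 0.29, 95% interval -0.35 to 0.99, limma adjusted p = 0.528) with all libraries, and 0.62 (limma adjusted p = 0.245) without that one.

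*Eng* encodes endoglin and was quantified in a locus of 2 symbols, *Ak1* and *Eng*, at chromosome 2, 32621758 to 32704137. *Ak1* encodes an adenylate kinase. The library value of such a locus appeared to be the mean over its symbols: the deposited group value was 2.19 times the mean of the ECtrl libraries here, and had a median of 2.16 times it over loci of 2 symbols and 1.08 over loci of 1. The values below were therefore read as the average of both genes, an inference that the sources do not state. The locus was at 105, 104 and 147 FPKM in ECtrl, 154, 127 and 127 in EfCtrl, and 104, 134 and 123 in E3KO. All 3 E3KO values lay inside the control range. E3KO cells differed from the mean of the controls by -0.08 (SE 0.15, 95% interval -0.42 to 0.26, limma adjusted p = 0.778) on the log2 scale, or by 0.02 without the library labelled E3KO replicate 1, and how much of it belongs to *Eng* cannot be told from these values.

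**Figure D2:**
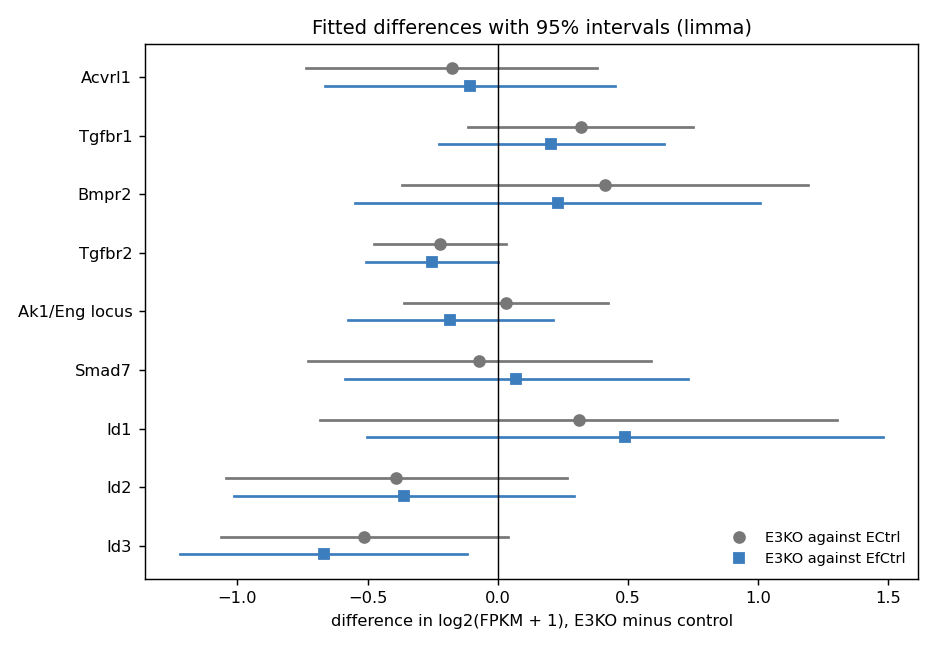
Fitted difference in log2(FPKM + 1), E3KO minus control (horizontal axis), for the 9 genes tested, with 95% intervals from limma, circles for the comparison with ECtrl and squares for that with EfCtrl. The intervals of Id3 (-1.22 to -0.12) and Tgfbr2 (-0.51 to -0.00) against EfCtrl lie below 0 and all others include 0, and 0 of the 9 genes had an adjusted p under 0.05 in either comparison.

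The inhibitory SMADs were the lowest of the 10 genes. *Smad7*, whose product blocks type I receptors of both branches, was at 1.61, 2.49 and 1.93 FPKM in ECtrl, 1.56, 1.60 and 1.97 in EfCtrl, and 0.703, 2.66 and 2.69 in E3KO. The library labelled E3KO replicate 1 was below all 6 controls and E3KO replicates 2 and 3 were above all 6. The log2 difference was 0.00 (SE 0.25, 95% interval -0.57 to 0.57, limma adjusted p = 1.00) with all libraries, and 0.37 (limma adjusted p = 0.150, exact permutation p = 0.0357, the smallest that 2 against 6 libraries allow) without that one. *Smad6*, whose product acts mainly on the BMP branch, was at 1.05, 2.23 and 1.19 FPKM in ECtrl, 0.742, 0.839 and 0.805 in EfCtrl, and 0.462, 0.569 and 1.41 in E3KO. Its groups overlapped, with the highest value in ECtrl replicate 2 (exact permutation p = 0.310, and 0.643 without the library labelled E3KO replicate 1).

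The 3 Id genes, at mm10 chromosome 2, 152736251 to 152737410 (*Id1*), chromosome 12, 25093801 to 25096092 (*Id2*) and chromosome 4, 136143497 to 136145755 (*Id3*), differed in the sign of their differences. *Id3* was at 31.4, 20.5 and 16.4 FPKM in ECtrl, 21.1, 27.4 and 25.7 in EfCtrl, and 12.1, 16.4 and 17.3 in E3KO. Of the 3 E3KO libraries, 1 was below all 6 controls and 2 were within the range of ECtrl. The log2 difference of *Id3* from the mean of the controls was -0.59 (SE 0.21, 95% interval -1.07 to -0.11), with an adjusted p of 0.141 by limma and p = 0.0476 by the exact permutation test. It was -0.51 against ECtrl (limma adjusted p = 0.280) and -0.67 against EfCtrl (limma adjusted p = 0.208). Without the library labelled E3KO replicate 1, it was -0.44 from the mean of the controls (exact permutation p = 0.179).

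*Id2* was at 11.9, 8.15 and 5.96 FPKM in ECtrl, 6.64, 10.3 and 7.97 in EfCtrl, and 4.39, 5.93 and 8.76 in E3KO. Its groups overlapped, with 2 of 3 E3KO libraries below all controls, and 1 once libraries were centred on their medians. Its log2 difference was -0.37 (SE 0.25, 95% interval -0.94 to 0.19, limma adjusted p = 0.382), and -0.17 without the library labelled E3KO replicate 1. *Id1*, a transcript widely used to read BMP signalling in endothelial cells, was at 19.7, 7.31 and 7.99 FPKM in ECtrl, 8.35, 9.83 and 9.56 in EfCtrl, and 24.1, 7.83 and 12.3 in E3KO. The library labelled E3KO replicate 1 was the highest and ECtrl replicate 1 was next, so high values occurred in both genotypes. The log2 difference was 0.40 (SE 0.37, 95% interval -0.46 to 1.26, limma adjusted p = 0.539), and -0.00 without the library labelled E3KO replicate 1.

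**Figure D3:**
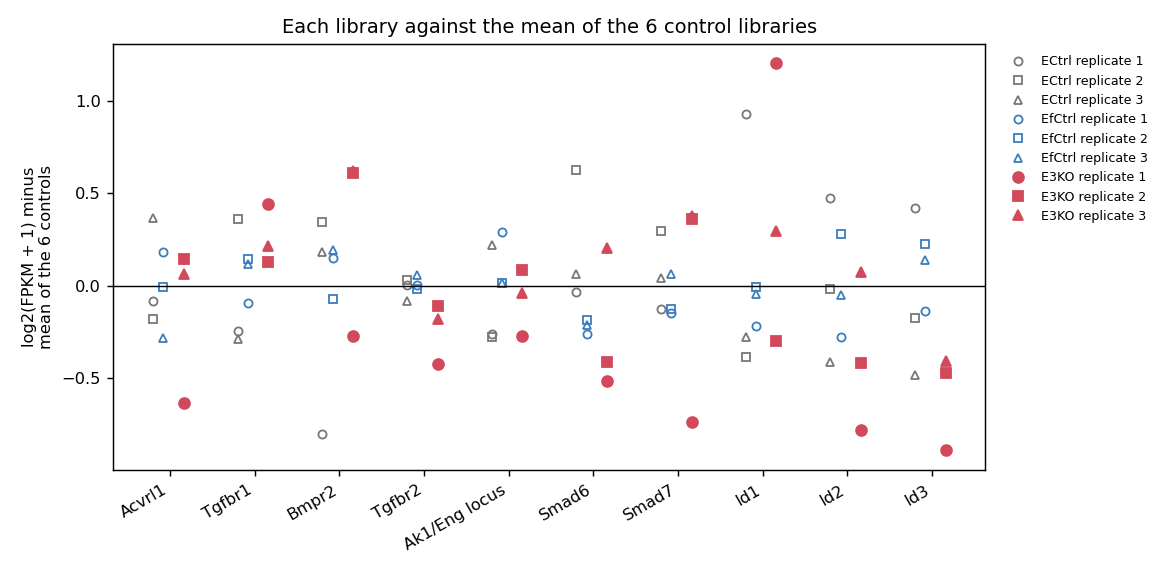
Each library's log2(FPKM + 1) minus the mean of the 6 controls (vertical axis) for the 10 genes (horizontal axis), with open symbols for controls, filled symbols for E3KO and the shape giving the replicate number. The library labelled E3KO replicate 1 (filled circles) is the lowest of the 9 for Acvrl1, Tgfbr2, Smad6, Smad7, Id2 and Id3 and the highest for Tgfbr1 and Id1.

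The other genes of the pathway were taken from 8 lists of 63 genes, of which 46 passed the expression limit. Against the mean of the controls 2 were called higher and 5 lower by limma, where 1.54% of all genes were called higher and 3.26% lower. *Bambi*, among those called higher, passed the expression limit through its E3KO mean alone, so its place in this count depended on its level there. Against ECtrl 1 was called higher and 3 lower, and against EfCtrl 0 were called higher and 1 lower. An unadjusted p under 0.05 by limma was found for 22 of the 46 against the mean of the controls, 18 against ECtrl and 21 against EfCtrl. Over all genes tested it was found for 23.8%, 20.1% and 17.7%. The lists were chosen with earlier results of these data known, so these counts cannot test whether the pathway as a set differed. The median log2 difference of the 46 genes from the mean of the controls was -0.15.

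Of 11 ligand genes, 9 were tested and 3 were called lower against the mean of the controls, where 3.26% of all genes were. *Tgfb2* was at 18.0, 19.2 and 16.1 FPKM in ECtrl, 17.4, 15.1 and 17.3 in EfCtrl, and 11.9, 9.61 and 7.66 in E3KO. Its log2 difference was -0.78 (SE 0.14, limma adjusted p = 0.0224). *Tgfb3* was at 14.3 to 19.6 FPKM in the 6 controls and at 8.48, 11.9 and 10.5 in E3KO, with a log2 difference of -0.72 (SE 0.13, limma adjusted p = 0.0270). *Bmp2*, an activating BMP ligand, was at 2.42 to 4.82 FPKM in the controls, with means of 3.88 in ECtrl and 2.65 in EfCtrl. It was at 1.91, 1.14 and 1.37 in E3KO, with a log2 difference of -0.77 (SE 0.14, limma adjusted p = 0.0262). Against ECtrl alone the difference was -0.98 (limma adjusted p = 0.0309) and against EfCtrl alone -0.57 (limma adjusted p = 0.138). *Tgfb2* (limma adjusted p = 0.0720) and *Tgfb3* (limma adjusted p = 0.0727) were not called against EfCtrl either. Against ECtrl, *Tgfb2* was called (limma adjusted p = 0.0409) and *Tgfb3* was not (limma adjusted p = 0.0549). All 3 E3KO libraries of *Tgfb2*, *Tgfb3* and *Bmp2* lay below all controls, as they did for 11.5% of all genes tested. *Tgfb1*, the most abundant TGF-beta ligand transcript here, averaged 87.3 FPKM in the controls and 86.9 in E3KO, with a log2 difference of 0.01 (limma adjusted p = 0.985). The activin subunit gene *Inhba* averaged 6.74 ± 3.28 FPKM (SD, n = 6) in the controls and 20.9 ± 1.40 (SD, n = 3) in E3KO, with a limma adjusted p of 0.0888. *Tgfb1* and *Inhba* are named here after their values were seen.

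Of 14 genes for secreted antagonists and latency proteins, 8 were tested. Against the mean of the controls 2 were called lower and 0 higher, where 3.26% and 1.54% of all genes were. *Ltbp1*, whose product tethers latent TGF-beta to the matrix, was at 8.23, 8.18 and 7.72 FPKM in ECtrl, 10.5, 7.09 and 9.65 in EfCtrl, and 3.45, 4.66 and 4.09 in E3KO. Every E3KO library was below every control, as for 11.5% of all genes tested. Its log2 difference was -0.91 (SE 0.13, limma adjusted p = 0.0140), and it was the only one of the 46 genes called against both ECtrl (-0.84, limma adjusted p = 0.0379) and EfCtrl (-0.99, limma adjusted p = 0.0378). Each of those calls held in 5 of 16 alternatives, among them 1 of the 9 omissions of a library. *Twsg1*, which encodes the BMP-binding protein twisted gastrulation, was at 58.7 to 74.3 FPKM in the controls and at 33.4, 45.8 and 44.0 in E3KO, with a log2 difference of -0.63 (SE 0.13, limma adjusted p = 0.0351). *Twsg1* was called against neither ECtrl nor EfCtrl alone.

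Of 6 co-receptor and pseudoreceptor genes, 4 were tested and *Bambi* rose. BAMBI resembles a type I receptor without a kinase domain. Its transcript was at 1.18, 1.39 and 1.21 FPKM in ECtrl, 1.45, 1.59 and 1.69 in EfCtrl, and 3.13, 2.38 and 2.18 in E3KO. The log2 difference from the mean of the controls was 0.56 (SE 0.11, limma adjusted p = 0.0288). It was 0.65 against ECtrl (limma adjusted p = 0.0394) and 0.46 against EfCtrl (limma adjusted p = 0.116). *Bambi* passed the limit of 2 FPKM through its E3KO mean alone, so its place among the genes tested depended on its level there. Of 10 other target genes, 9 were tested and *Ctgf* rose, a matrix-associated factor induced by TGF-beta and by other inputs. It was at 119 to 195 FPKM in the controls and at 316, 236 and 264 in E3KO, with a log2 difference of 0.87 (SE 0.16, limma adjusted p = 0.0270) from the mean of the controls. *Ctgf* was called against neither ECtrl nor EfCtrl alone. All 3 E3KO libraries of *Bambi* and of *Ctgf* lay above all controls, as they did for 5.18% of all genes tested.

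In the remaining lists 0 genes were called by limma in any comparison. They held 2 tested type I receptor genes, 1 type II receptor gene, 5 receptor-regulated and common SMADs and 8 intracellular inhibitors, of which 0, 0, 2 and 3 had an unadjusted p under 0.05 against the mean of the controls. Their most abundant genes in the controls were *Acvr1* (18.9 FPKM in the controls and 25.4 in E3KO), *Acvr2a* (17.7 and 16.3), *Smad1* (147 and 101) and *Tgif1* (165 and 131). The E3KO mean of *Acvr1* combines 44.2 FPKM in the library labelled E3KO replicate 1 with 15.6 and 16.5 in the others, and its log2 difference was 0.27 with that library and -0.20 without it. *Smad1*, which encodes a SMAD of the BMP branch, had a log2 difference of -0.56 (SE 0.15, limma adjusted p = 0.0779), or -0.35 without that library (limma adjusted p = 0.0926), and *Tgif1*, which encodes a SMAD corepressor, one of -0.33 (SE 0.10, limma adjusted p = 0.110).

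The calls on the 7 pathway genes depended on single libraries. In the comparison with the mean of the controls, *Ltbp1* kept its call in 8 of the 9 omissions of a library, *Tgfb2* in 5, *Tgfb3* and *Bmp2* in 4, *Bambi* and *Ctgf* in 3 and *Twsg1* in 1. Without E3KO replicate 3, 0 of the 7 remained called (limma adjusted p between 0.0746 and 0.102), and 9 genes of all those tested were called in place of 509. Without the library labelled E3KO replicate 1, *Tgfb2*, *Bmp2*, *Ltbp1* and *Bambi* were still called, and *Tgfb3* (limma adjusted p = 0.0522), *Twsg1* (0.0549) and *Ctgf* (0.0610) were not. Leaving out EfCtrl replicate 1 or EfCtrl replicate 3 ended every call but that on *Ltbp1*, and leaving out EfCtrl replicate 2 ended those on *Tgfb3*, *Bmp2*, *Twsg1*, *Bambi* and *Ctgf*. Those on *Bambi*, *Twsg1* and *Ctgf* were lost without ECtrl replicate 1, that on *Twsg1* without ECtrl replicate 2, and those on *Bambi*, *Tgfb2*, *Bmp2* and *Twsg1* without E3KO replicate 2. The quantified locus of *Tgfb3* spans 4 other annotated genes, among them the coding gene *Ttll5*, and that of *Ctgf* spans 2 other annotated genes, neither of them coding.

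**Figure D4:**
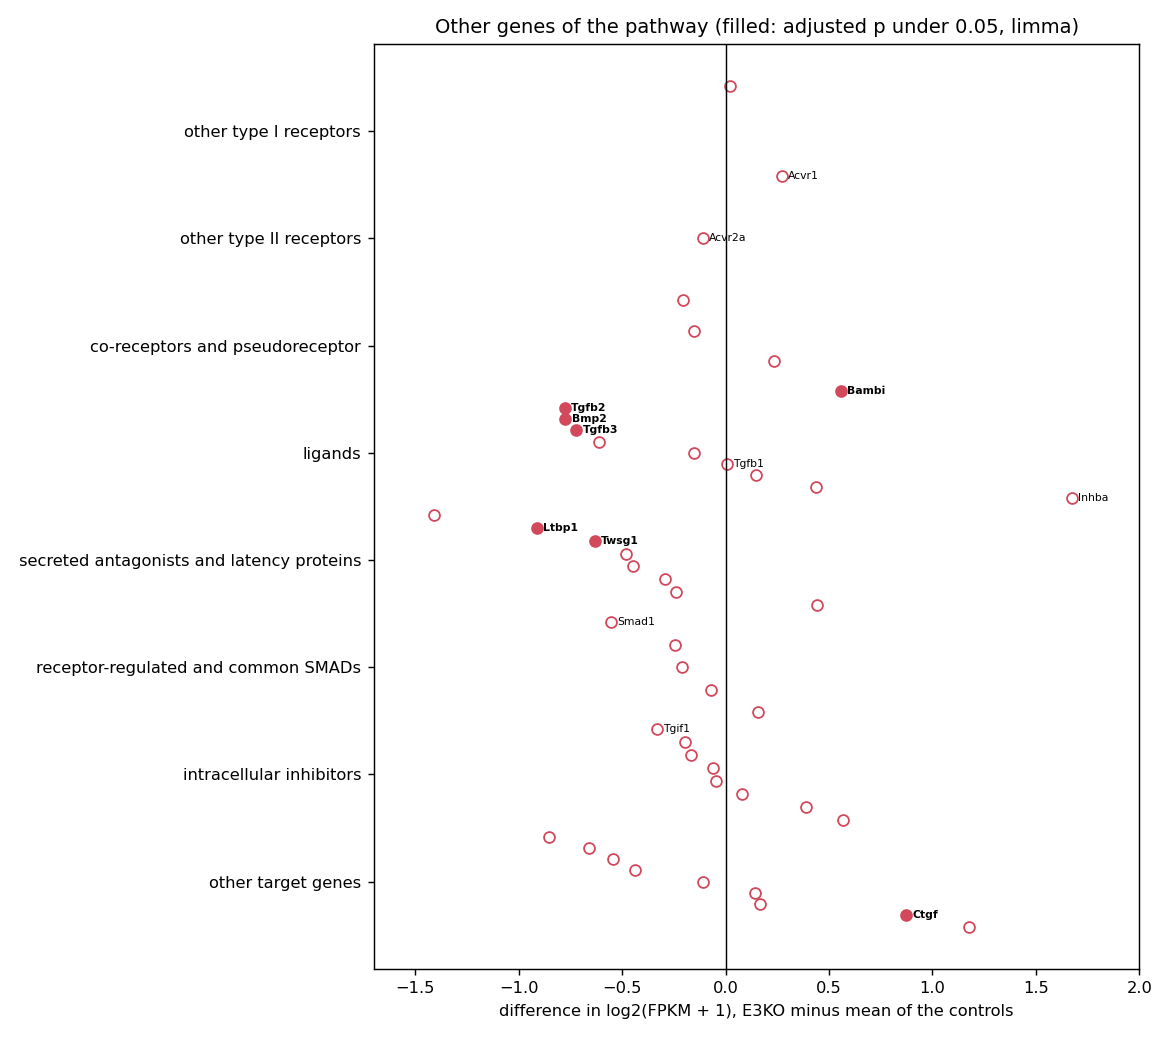
Fitted difference in log2(FPKM + 1), E3KO minus the mean of the controls (horizontal axis), for the 46 tested genes of 8 pathway lists (vertical axis), with filled symbols for an adjusted p under 0.05 by limma and names for genes the text describes. The 5 filled genes left of 0 are Ltbp1, Tgfb2, Bmp2, Tgfb3 and Twsg1, and the 2 to the right are Bambi and Ctgf.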

How the data were processed

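RNA-seq was available from 9 libraries of primary MLEC. Per the labels and the study's methods, the authors aligned paired reads to mm10 with TopHat and Bowtie, estimated FPKM with Cufflinks (version 1.0.3) and compared groups with Cuffdiff. The authors deposited FPKM values of each library and each group in 3 tables, beside fold changes, p-values and q-values of their own comparisons, which were not used. Whether quantification used strand is not given in the sources used here. Values were equal in the tables that share a library (445248 equal, 0 different). Each of 3749 loci whose symbol names several loci was left out. Where a locus lists several symbols, the library value appeared to be their mean, which was inferred from its ratio to the group value.

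FPKM were transformed as log2(FPKM + 1) and fitted with limma 3.58.1 (R 4.3.3), with the 3 groups in the model, default moderation and Benjamini-Hochberg adjustment over the 10605 genes that averaged at least 2 FPKM in some group. The limma fit was tested on simulated data in which 200 genes were changed. Exact permutation tests used log2(FPKM + 0.1) under Python 3.11.15 with scipy 1.17.1, numpy 2.4.6 and pandas 2.3.3. Annotation was GENCODE release M21, on the same build, and promoter sequences were from RefSeq (GRCm38.p6). The fragments per gene are not known from FPKM, and low values gave rough relative depths of 1.25 to 1.71 times that of ECtrl replicate 2, so no counting interval is given.

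The 10 genes, the pathway lists and the tests were chosen with earlier results of these data known. Named genes are the 10 genes, *Mapk8* and *Mapk9*, every pathway gene called against the mean of the controls, ECtrl or EfCtrl, and the most abundant gene of each list without a call. Marker genes serve as checks, and genes named outside this rule are marked or describe levels only. Some genes of the lists are not reported here by name. Alternatives were another pseudocount, no or a higher expression limit, centred libraries, a mean-variance trend, the replicate number as a block, a fit of only the groups compared, the group values and the omission of each library. Same-numbered libraries came from different isolations, and their deviations from the group means correlated between -0.040 and 0.123.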

Additional observations from a re-analysis of the deposited data

How the results depend on the processing

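None of the 9 tested genes was called under any alternative with a test, the lowest adjusted p against the mean of the controls being 0.0899 for *Id3*. Against the mean of the controls, directions turned for *Acvrl1* (log2 difference 0.10 without the library labelled E3KO replicate 1, lowest -0.29 in the other omissions). They also turned for *Eng* (-0.16 to 0.0234 over the omissions, and 0.0395 with the group values). *Id1* (-0.00257 to 0.75 over the omissions) and *Smad7* (-0.19 to 0.37, and -0.0771 with a pseudocount of 0.1) turned as well. The group values gave *Tgfbr2* a log2 difference of -0.11. The number of the 10 genes with an exact permutation p under 0.05 was 1 to 2 when each library was left out in turn: *Tgfbr2*, whose p stays at the smallest value possible in every omission because its groups do not overlap, with *Id3* when ECtrl replicate 3 was left out and *Smad7* when E3KO replicate 1 was. For the 7 called pathway genes, 60 alternative values kept the call and 43 lost it with the direction kept. The cause of these changes was not tested. Genes called by limma numbered 9 (without E3KO replicate 3) to 408 over the omissions against 509 with all libraries, and 0 to 215 against ECtrl, 1 to 218 against EfCtrl and 0 to 4 between the controls, where the full fit gave 239, 101 and 0. With no expression limit they numbered 351, 95 and 17. With only the groups compared in the fit they numbered 0 against ECtrl and 70 against EfCtrl, and this alternative gives no separate value against the mean of both controls. Centred libraries gave 209 higher and 268 lower in place of 163 and 346.

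With the replicate number as a block, 202, 1, 1 and 0 genes were called in the 4 comparisons, 0 of them among the 9 genes. This fit lost the calls on *Bambi* (adjusted p = 0.0756), *Tgfb3* (0.0744), *Bmp2* (0.0528), *Twsg1* (0.0876) and *Ctgf* (0.0705) against the mean of the controls, and those on *Ltbp1* against each control group. A mean-variance trend lost *Bambi* (0.126) and *Bmp2* (0.0510), and no expression limit lost *Twsg1* (0.0515). The pairing of numbers is not given by the design, and same-numbered libraries did not correlate best with each other throughout (-0.040 to 0.123).

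Precision was limited by 3 libraries a group, by the unknown fragment counts behind each FPKM, and for *Smad6* and *Smad7* by levels near the expression limit.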
